A study of Rattus norvegicus with 15 samples.

Results

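Activins, TGF-betas and bone morphogenetic proteins (BMPs) are related secreted growth factors, and 10 genes of their signalling system were followed here in rat tracheal epithelial cells: the activin subunits Inhbe and Inhba, the ligands Tgfb1, Tgfb2, Tgfb3, Bmp2 and Bmp4, the co-receptor Eng, and the inhibitory Smads Smad6 and Smad7. They were taken by gene symbol from a deposited table of 21969 genes, and all 10 were among the 15860 genes with enough counts to be tested. The 10 genes were chosen from earlier results on these same counts, so their levels and differences are given as a description, without p-values. The cells, freed from rat trachea and grown for weeks at an air-liquid interface, with medium below and air above, gave 15 libraries of poly(A) RNA. In the 5 libraries called CSE with naringenin, cells received 10% CSE for 24 h and 100 µM naringenin, a citrus flavanone, from 4 h before. The 5 CSE libraries came from cells given 10% CSE for 24 h, and the 5 control libraries from cells with no treatment. CSE is the labels' abbreviation, and no group received naringenin alone. The labels name no strain, age, animal or culture, so the p-values given for other genes reflect the spread of these libraries alone, which may be technical.

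Each library held between 55.1 and 60.6 M counts (M, 1e6), and levels are given in CPM (counts per M, scaled by TMM). A floor of 3 counts corresponds to 0.048 to 0.0557 CPM and covers counting error only. Clustering put the libraries into 3 sets that the labels do not mention. Set 1 holds CSE with naringenin 3 and 4, CSE 1 and 3, and control 1 and 2. Set 2 holds CSE with naringenin 1 and 2, CSE 2 and 4, and control 3 and 4. Set 3 holds library 5 of each group. All 8 airway epithelium markers (Epcam, Cdh1, Krt8, Krt18, Krt5, Tp63, Scgb1a1 and Dnai1) were tested genes, and together they reached 2680 to 3680 CPM in CSE with naringenin libraries, 2770 to 3320 CPM in CSE libraries and 4070 to 5610 CPM in control libraries. Markers of fibroblasts and smooth muscle, 11 of them in the table, summed to 39.9 to 227 CPM in CSE with naringenin libraries, 24.4 to 133 CPM in CSE libraries and 159 to 591 CPM in control libraries. No control library overlapped the CSE libraries in that sum, and in every group the set 2 libraries were the highest. In the airway epithelium sum, too, every control library lay above every CSE library. Cartilage markers summed to 1.32 to 2.78 CPM in CSE with naringenin libraries, 0.719 to 1.8 CPM in CSE libraries and 1.36 to 1.79 CPM in control libraries, and leukocyte markers to 4.18 to 13.4, 3.81 to 27.8 and 5.28 to 33.8 CPM in the same order of groups.

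The ligands of this family are secreted dimers that bring together type I and type II receptor kinases on the cell surface. TGF-betas and activins signal mainly through Smad2 and Smad3, and BMPs through Smad1, Smad5 and Smad9; the activated Smads join Smad4 and enter the nucleus. Smad6 and Smad7 are induced by the pathway and hold it back, and the Id genes are classical BMP targets. TGF-beta is released in a latent complex that must be opened, in epithelia largely by the integrins alpha-v beta-6 and alpha-v beta-8, and in airway epithelium it is known for restraining growth and promoting matrix synthesis, while BMPs take part in basal cell renewal.

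In the deposited table, of a build that the sources used here leave unnamed, the 10 genes are annotated as protein-coding. The activin subunits are Inhbe on chromosome 7 from 70640075 to 70643169 (minus strand) and Inhba on chromosome 17 from 51898217 to 51912496 (minus strand). The TGF-beta genes are Tgfb1 on chromosome 1 from 82480195 to 82497199 (plus strand), Tgfb2 on chromosome 13 from 105039853 to 105141030 (minus strand) and Tgfb3 on chromosome 6 from 109913757 to 109935533 (minus strand). The BMP genes are Bmp2 on chromosome 3 from 126335863 to 126346318 (plus strand) and Bmp4 on chromosome 15 from 20776054 to 20822740 (minus strand), the co-receptor is Eng on chromosome 3 from 11679530 to 11717485 (plus strand), and the inhibitory Smads are Smad6 on chromosome 8 from 68898296 to 68966108 (minus strand) and Smad7 on chromosome 18 from 71395830 to 71424157 (plus strand).

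Levels can be compared between genes on the deposited FPKM scale, which divides by gene length. In all 3 groups Tgfb2 had the highest level of the 10 genes, with 63.2 ± 38.0 FPKM in CSE with naringenin, 45.4 ± 24.1 FPKM in CSE and 67.4 ± 33.6 FPKM in control (SD, n = 5 each). Tgfb1, Tgfb3 and Smad7 followed in that order in each group, at 18.5, 8.34 and 5.02 FPKM in CSE with naringenin, 12.6, 6.17 and 4.06 FPKM in CSE, and 21.3, 12.6 and 6.98 FPKM in control. The lower end of the order was not the same in every group. Inhba was the lowest of the 10 in CSE at 0.0988 FPKM, and came seventh in control at 1.04 FPKM. Inhbe came eighth in CSE at 0.488 FPKM, and was the lowest in control at 0.0586 FPKM. Eng had 1.81 FPKM in CSE, just above Bmp4 and Smad6, and 0.558 FPKM in control, below both. In control only Tgfb2 stood clear of its neighbour, its lowest library lying above the highest of Tgfb1, and every other pair of neighbours overlapped. In CSE, Tgfb2, Smad7 and Smad6 each stood clear of the gene next below.

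**Figure D1:**
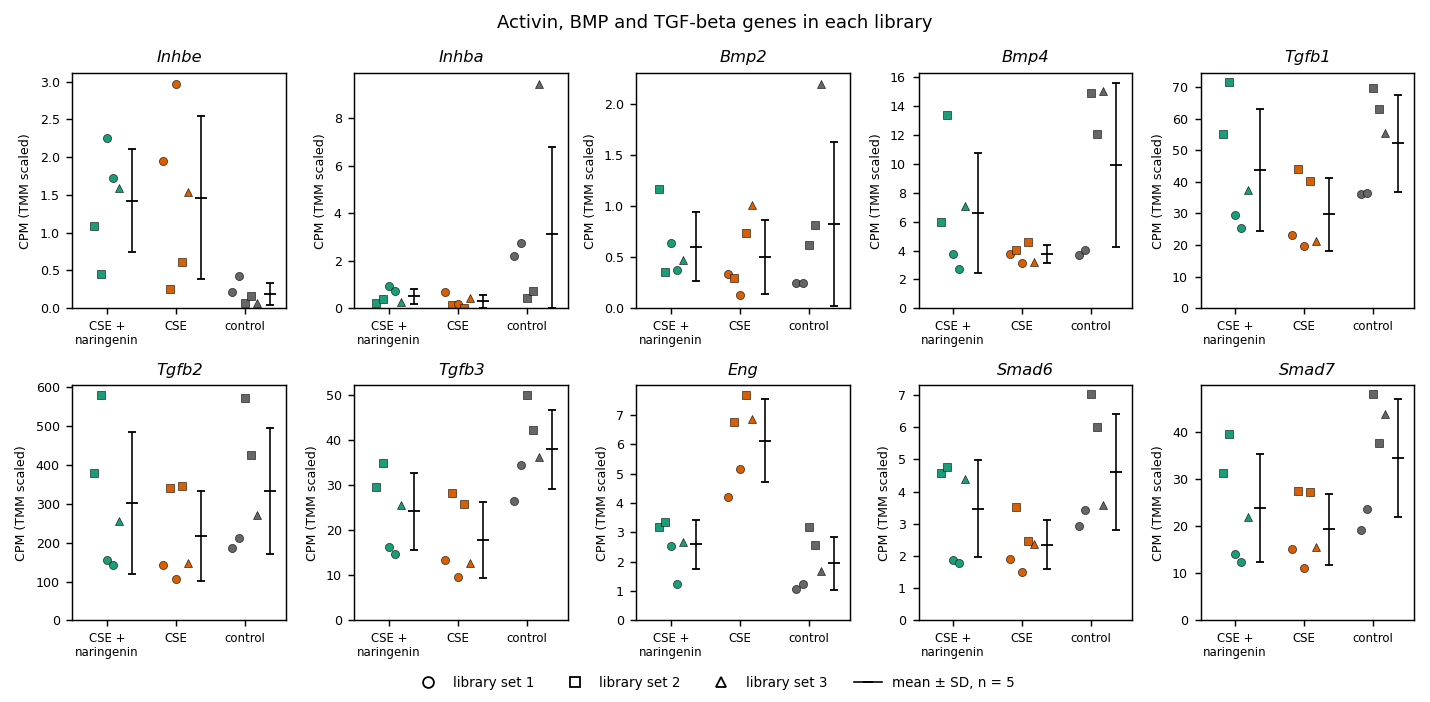
Level of each of the 10 genes in every library, in CPM on a linear axis from 0, with CSE with naringenin left, CSE in the middle and control right; points are libraries, shaped by library set, and bars are the mean ± SD over 5 libraries, cut at 0 where the SD exceeds the mean (Inhba in control). Eng lay between 4.19 and 7.67 CPM in all CSE libraries, above the 1.08 to 3.19 CPM of the control libraries, and Tgfb2 varied more between library sets than between groups.

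The bases just upstream of the start of transcription are shown for 4 genes: Inhbe and Eng, which were higher in CSE, Tgfb2, the gene with the highest level, and Smad7, the feedback inhibitor. RefSeq's promoter table (build GRCr8) matched 8 of the 10 genes, without Bmp2 and Smad6. Each line gives the 250 bases before the start, 5′ to 3′ on the gene's strand, and capitals mark matches, on either strand, to the motifs named below. The regions are chr7:65064520-65064769 on the minus strand for Inhbe, chr3:36332029-36332278 on the plus strand for Eng, chr13:100792686-100792935 on the minus strand for Tgfb2 and chr18:71263258-71263507 on the plus strand for Smad7.
Inhbe: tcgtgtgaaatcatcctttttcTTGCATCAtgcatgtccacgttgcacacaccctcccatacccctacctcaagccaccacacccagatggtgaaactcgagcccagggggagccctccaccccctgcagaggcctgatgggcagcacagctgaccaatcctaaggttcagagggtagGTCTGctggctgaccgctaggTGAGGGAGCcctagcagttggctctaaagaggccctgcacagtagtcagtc
Eng: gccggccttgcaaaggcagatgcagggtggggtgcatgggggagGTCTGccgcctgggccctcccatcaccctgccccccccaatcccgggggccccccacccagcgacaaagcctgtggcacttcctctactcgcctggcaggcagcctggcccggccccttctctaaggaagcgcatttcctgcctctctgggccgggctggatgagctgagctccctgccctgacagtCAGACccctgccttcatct
Tgfb2: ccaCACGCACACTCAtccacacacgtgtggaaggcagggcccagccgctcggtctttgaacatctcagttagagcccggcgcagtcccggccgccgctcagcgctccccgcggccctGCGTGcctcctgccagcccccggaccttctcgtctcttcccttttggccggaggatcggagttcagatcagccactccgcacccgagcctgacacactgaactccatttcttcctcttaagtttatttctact
Smad7: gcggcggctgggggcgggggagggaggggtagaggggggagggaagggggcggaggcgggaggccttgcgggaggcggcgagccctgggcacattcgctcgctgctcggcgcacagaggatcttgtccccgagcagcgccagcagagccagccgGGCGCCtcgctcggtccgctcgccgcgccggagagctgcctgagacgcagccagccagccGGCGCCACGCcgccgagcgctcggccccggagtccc
The Inhbe sequence holds TTGCATCA, 228 bases before the start, which read on the other strand matches TGATGNAA, the composite element of C/EBP and ATF factors; of the 8 genes it alone has this match, which occurs in 3.4% of 33469 rat promoters of the same length. It also holds a match to TGANNNNGC, the core of the antioxidant response element, 51 bases before the start, as does Tgfb2 (2 of 8 genes, 34.7% of promoters). The SMAD binding core CAGAC (read as GTCTG on the other strand) was found in Inhbe, Eng and Bmp4 (3 of 8 genes, 42.9% of promoters), and Eng has it 206 and 19 bases before its start. GGCGCC, a GC-rich SMAD site, occurs 96 and 36 bases before the Smad7 start (1 of 8 genes, 8.69% of promoters). GCGTG, the core of the xenobiotic response element, was found in Tgfb1, Tgfb2 and Smad7 (3 of 8 genes, 25.9% of promoters), overlapping the GGCGCC match in Smad7 and the TGANNNNGC match in Tgfb2. The SMAD palindrome GTCTAGAC and the AP-1 site TGANTCA were found in none of the 8 (0.173% and 6.34% of promoters). These matches describe the letters of the sequence and are not shown to be bound.

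The activin subunit genes differed in opposite directions between CSE and control. Inhbe encodes the beta E subunit, which forms activin E and is best known from liver. Its level was 1.95, 0.259, 2.96, 0.607 and 1.54 CPM in the 5 CSE libraries, against 0.212, 0.431, 0.0683, 0.157 and 0.0742 CPM in the control libraries. All but CSE 2 lay above every control library. The log2 fold change (logarithm to base 2, CSE over control) was 2.95 ± 0.66 (SE), 7.70-fold, and within sets 1, 2 and 3 it was 2.94, 1.94 and 4.37. These are low levels: the 5 CSE libraries hold 440 Inhbe counts in all and the control libraries 53.

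Inhba encodes the beta A subunit of activin A, which is also part of inhibin A. It was at 0.703, 0.138, 0.167, 0 and 0.419 CPM in CSE libraries, against 2.19, 2.76, 0.444, 0.714 and 9.43 CPM in control libraries. The groups overlapped, since CSE 1 lay above control 3 and just under control 4, and control 5 was far above all others. Inhba had a log2 fold change of −3.43 ± 0.90, −2.41 without control 5 and −4.10 without CSE 1, and within the sets it was −2.51, −3.07 and −4.49. The other subunit genes, Inha (the alpha subunit of inhibins) and Inhbb (the beta B subunit), did not pass the test described below, with log2 fold changes of −0.75 ± 0.61 (edgeR, adjusted p = 0.415) and −0.16 ± 0.11 (adjusted p = 0.354).

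Each of the 3 TGF-beta genes had a lower mean in CSE than in control, and Tgfb3 alone was past the threshold used for calls, an adjusted p under 0.05 in edgeR's quasi-likelihood test over all genes. Tgfb3 was at 13.3, 28.2, 9.51, 25.7 and 12.6 CPM in CSE libraries, against 26.5, 34.5, 50.0, 42.3 and 36.1 CPM in control libraries. CSE 2, a set 2 library, lay above control 1, a set 1 library, and the other 4 CSE libraries lay below all control libraries. Its log2 fold change was −1.08 ± 0.31, and the call was lost without control 3, CSE 1, CSE 3 or CSE 5, where the value ranged from −0.99 to −0.93.

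Tgfb1, the isoform found in most tissues, was at 23.2, 44.1, 19.8, 40.3 and 21.4 CPM in CSE libraries, against 36.1, 36.5, 69.9, 63.0 and 55.5 CPM in control libraries. The set 2 CSE libraries lay above the set 1 control libraries. Tgfb1 had a log2 fold change of −0.81 ± 0.31, not past the threshold, and within the sets it was −0.76, −0.65 and −1.38. Tgfb2 was at 143, 340.0, 108, 344 and 149 CPM in CSE libraries, against 186, 212, 571, 424 and 271 CPM in control libraries. Its log2 fold change was −0.62 ± 0.44, not past the threshold, with −0.67, −0.54 and −0.86 within the sets. With library set as a term of the fit, all 3 TGF-beta genes were past the threshold as lower in CSE. In that fit 20.6% of all genes were called lower. The log2 fold changes were −0.84 ± 0.11 for Tgfb1, −0.65 ± 0.13 for Tgfb2 and −1.17 ± 0.14 for Tgfb3. The sets come from these same counts, so these SE and calls may be too favourable. The SNORA70 gene lies within Tgfb2 on the opposite strand, but holds 6 counts in all libraries together.

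The library sets took most of the variance of Tgfb2. Of its sum of squares, 80.4% lay between sets and 13.3% between groups, against medians of 32.4% and 24.8% over all genes tested. For Tgfb1 the shares were 59.1% and 33.9%, and for Tgfb3 40.4% and 50.1%. The sets were found from these counts, which fixes part of their share. The sum of the fibroblast and smooth muscle markers given above was highest in the set 2 libraries of each group. It was lower in every CSE library than in any control library, as was the airway epithelium sum. Most of the fibroblast and smooth muscle sum is Tagln, at 77.9 CPM in CSE with naringenin, 48.8 CPM in CSE and 262 CPM in control. Of the 9 markers tested, Tagln, Col1a1 and Cnn1 were called lower in CSE versus control (edgeR, adjusted p = 0.0273, 0.0419 and 0.00519). The other 6 were not called. Acta2 averaged 6.04 CPM in CSE and 26.9 CPM in control, Col3a1 1.36 and 2.41 CPM, and Pdgfra 0.42 and 0.557 CPM. Lum was at 0.316 CPM in CSE and 0.344 CPM in control. Myh11, at 4.77 CPM in CSE and 3.14 CPM in control, and Des, at 0.959 and 0.699 CPM, had the higher mean in CSE. Pdgfrb and Dcn had too few counts to be tested, at 0.0139 and 0.062 CPM in control, near or below the floor. In bulk RNA, fewer cells of a type and less RNA per cell cannot be told apart. The part of these markers in the levels of the TGF-beta genes, Inhba and Bmp4 was not tested.

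The BMP ligands were at low to moderate levels. Bmp4, a ligand of airway mesenchyme and epithelium, was at 3.77, 4.07, 3.13, 4.60 and 3.20 CPM in CSE libraries, against 3.69, 4.04, 14.9, 12.1 and 15.1 CPM in control libraries. The CSE libraries were close together, and control 1 and 2, both of set 1, lay among them. The log2 fold change was −1.41 ± 0.45, past the threshold, but within the sets it was −0.16, −1.64 and −2.24. The call was lost without any one of control 3, 4 or 5 or of the 5 CSE libraries, with values from −1.50 to −1.21. Bmp2 was at 0.336, 0.293, 0.133, 0.739 and 1.01 CPM in CSE libraries, against 0.247, 0.251, 0.615, 0.818 and 2.19 CPM in control libraries. These ranges overlapped widely, and the log2 fold change of −0.71 ± 0.63 was not past the threshold with or without the library sets in the fit.

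Eng encodes endoglin, a co-receptor for TGF-beta and BMP ligands that is best known from endothelial cells. It was at 4.19, 6.74, 5.16, 7.67 and 6.86 CPM in CSE libraries, against 1.08, 1.24, 3.19, 2.56 and 1.69 CPM in control libraries. All 5 CSE libraries lay above all 5 control libraries. The log2 fold change was 1.65 ± 0.32, 3.13-fold, and 2.01, 1.32 and 2.02 within the sets. The 5 endothelial markers in the table (3 of them tested) summed to 3.8 to 6.11 CPM in CSE with naringenin libraries, 3.26 to 5.58 CPM in CSE libraries and 3.49 to 6.8 CPM in control libraries, ranges that overlap. Vwf averaged 2.16 CPM in CSE with naringenin, 2.27 CPM in CSE and 2.64 CPM in control, Tek 1.72, 1.29 and 1.18 CPM, and Tie1 1.06, 0.816 and 0.701 CPM. None of these 3 was called in CSE versus control (edgeR, adjusted p = 0.576, 0.829 and 0.774). Kdr had 45 counts and Cldn5 had 3 counts over all 15 libraries, and Cldn5 was at 0 in both groups given CSE. The part of endothelial RNA in the Eng level was not tested.

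The inhibitory Smads were lower on average in CSE, with neither past the threshold. Smad7, which blocks TGF-beta and BMP receptors and directs their breakdown, was at 15.1, 27.6, 11.1, 27.2 and 15.6 CPM in CSE libraries, against 19.3, 23.6, 48.0, 37.6 and 43.7 CPM in control libraries. The set 2 CSE libraries lay above the set 1 control libraries. Its log2 fold change was −0.84 ± 0.35, and −0.71, −0.64 and −1.49 within the sets. Smad6, which acts mainly on BMP signals, was at 1.9, 3.52, 1.52, 2.46 and 2.38 CPM in CSE libraries, against 2.95, 3.43, 7.02, 6.01 and 3.60 CPM in control libraries, a log2 fold change of −0.97 ± 0.34. With library set in the fit both were past the threshold as lower in CSE, at −0.84 ± 0.14 for Smad7 and −0.94 ± 0.17 for Smad6. That fit called 20.6% of all genes lower. Its sets come from these same counts, so its SE and calls may be too favourable.

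In CSE versus control, 2 of the 10 genes were thus past the threshold as higher (Inhbe and Eng), 3 as lower (Inhba, Tgfb3 and Bmp4), and 5 were not past it. Of all genes tested, 10.8% were called higher and 10.4% lower. With library set as a term, 2 of the 10 were past the threshold as higher and 7 as lower, with Bmp2 the exception, where 19.2% of all genes were called higher and 20.6% lower. The genes were picked with these differences known, so nothing is read from these counts.

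**Figure D2:**
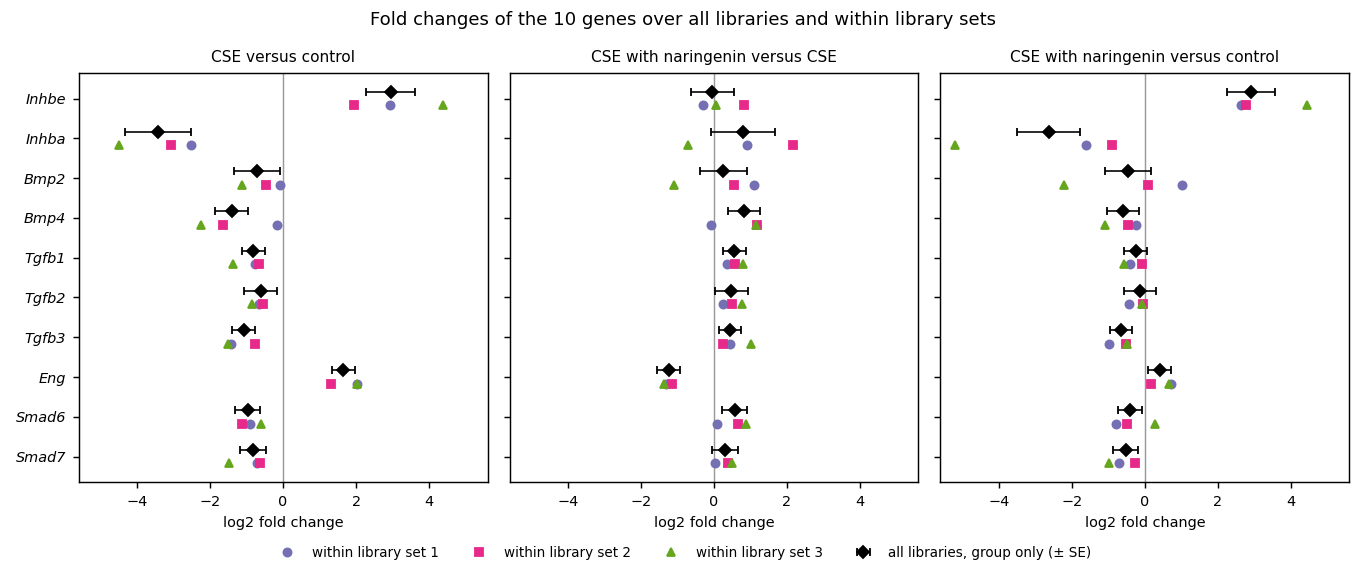
Log2 fold change with its standard error for each of the 10 genes in the fit of all 15 libraries (black diamonds), with the fold change within each library set (coloured points), for CSE versus control, CSE with naringenin versus CSE and CSE with naringenin versus control. In CSE versus control Inhbe and Eng lay at 2.95 and 1.65 and the other 8 genes below 0, with every library set on the same side of 0.

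In CSE with naringenin versus CSE, none of the 10 genes was past the threshold. Of all genes tested, 0.334% were called higher and 0.574% lower in this comparison. DESeq2 and limma-voom each called 1 of the 10, Eng, where they called 4.04% and 1.09% of all genes. Eng was at 3.18, 3.34, 2.55, 1.23 and 2.67 CPM in CSE with naringenin libraries, and all 5 lay below all 5 CSE libraries, whose lowest value was 4.19 CPM. Its log2 fold change was −1.24 ± 0.31 against CSE, and 0.41 ± 0.32 against control, whose libraries it overlapped.

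Inhbe was at 1.09, 0.455, 2.25, 1.72 and 1.60 CPM in CSE with naringenin libraries, a log2 fold change of −0.04 ± 0.59 against CSE, and the sign of that value turned under other settings. Against control its log2 fold change was 2.90 ± 0.66, and all 5 CSE with naringenin libraries lay above all 5 control libraries. Inhba was at 0.230, 0.385, 0.920, 0.709 and 0.255 CPM in CSE with naringenin libraries, a log2 fold change of 0.80 ± 0.88 against CSE and −2.63 ± 0.86 against control. Neither value for Inhba was past the threshold.

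The TGF-beta ligands lay between the other groups in their means. Tgfb1 was at 55.1, 71.7, 29.4, 25.5 and 37.4 CPM in CSE with naringenin libraries, a log2 fold change of 0.56 ± 0.31 against CSE and −0.25 ± 0.31 against control. Tgfb2 was at 378, 579, 155, 142 and 255 CPM, with 0.48 ± 0.44 against CSE, and Tgfb3 at 29.5, 34.8, 16.4, 14.6 and 25.5 CPM, with 0.43 ± 0.31 against CSE. In all 3 genes the set 2 libraries, CSE with naringenin 1 and 2, were the highest. With library set in the fit these 3 genes were past the threshold as higher than in CSE, at 0.53 ± 0.11, 0.45 ± 0.13 and 0.47 ± 0.14. In that fit Eng was past it as lower, at −1.26 ± 0.19, where 6.66% of all genes were called higher and 6.04% lower. The sets come from these same counts, so these SE and calls may be too favourable. The sum of the fibroblast and smooth muscle markers was highest in CSE with naringenin 1 and 2 too, at 152 and 227 CPM. In the set 2 CSE libraries that sum was 123 and 133 CPM. The part of these markers in the TGF-beta values was not tested.

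Bmp4 was at 6.01, 13.4, 3.79, 2.75 and 7.09 CPM in CSE with naringenin libraries and Bmp2 at 1.17, 0.350, 0.637, 0.371 and 0.476 CPM. Their log2 fold changes against CSE were 0.82 ± 0.44 and 0.26 ± 0.64. Smad7 was at 31.4, 39.5, 14.1, 12.4 and 22.0 CPM and Smad6 at 4.59, 4.76, 1.88, 1.77 and 4.38 CPM, with 0.31 ± 0.35 and 0.56 ± 0.34 against CSE. None of these 4 was past the threshold, and each overlapped both other groups.

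In CSE with naringenin versus control, Inhbe was the only one of the 10 past the threshold, as higher, where 4.26% of all genes were called higher and 3.9% lower. With library set in the fit Inhbe was past it as higher and Inhba, Tgfb1, Tgfb3 and Smad7 as lower, where 12.6% of all genes were called higher and 13.9% lower. This comparison shares its control libraries with CSE versus control and its treated libraries with the one before, so the 3 comparisons are not independent.

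The genes whose log2 CPM ran most like that of each member over the 15 libraries are given as a description, since the points share group and library set. For Inhbe they were Ctns (Pearson r = 0.951), Pck2 (0.94) and Pde4c (0.936). For Tgfb1 they were Cftr (0.991), Fn1 (0.989) and Col5a1 (0.98), for Tgfb2 Wfdc1 (0.989), Htra1 (0.985) and Tmem132a (0.985), and for Tgfb3 Sparc (0.982), Lmcd1 (0.976) and Me3 (0.975). Smad7 ran most like Fblim1 (0.983), Rusc2 (0.982) and Glis2 (0.981), Eng like Hadhb (0.936), Utp4 (0.934) and Atp6v1b2 (0.933), and Inhba like Anln (0.945), Kif22 (0.944) and Slc45a3 (0.943). Bmp4 was nearest to Alox5 (0.976) and Smad6 to Cd200 (0.963), while for Bmp2 the highest value, with Ikzf2, was 0.837. Eng had the largest share of its variance between groups, 69.3%, followed by Inhbe with 63.7%, and Bmp2 the smallest, 5.57%.

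Around the 10 genes, a list of other genes of the pathway, drawn up by role, was tested: 79 are in the table and 66 had enough counts. The list was written with earlier results of these data known, so its shares may not be independent of them. In CSE versus control 7 of the 66 were called higher and 13 lower (edgeR's quasi-likelihood test, Benjamini-Hochberg adjustment over all genes), which is 10.6% and 19.7% of the list, against 10.8% and 10.4% of all genes. The median log2 fold change of the list was −0.35 and that of all genes −0.00255. With library set in the fit 7 were called higher and 32 lower, 10.6% and 48.5% of the list, where 19.2% and 20.6% of all genes were. The 13 genes of the list with too few counts included the ligand genes Inhbc, Gdf5, Gdf7, Mstn, Nodal, Lefty1 and Amh, and Smad9.

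**Figure D3:**
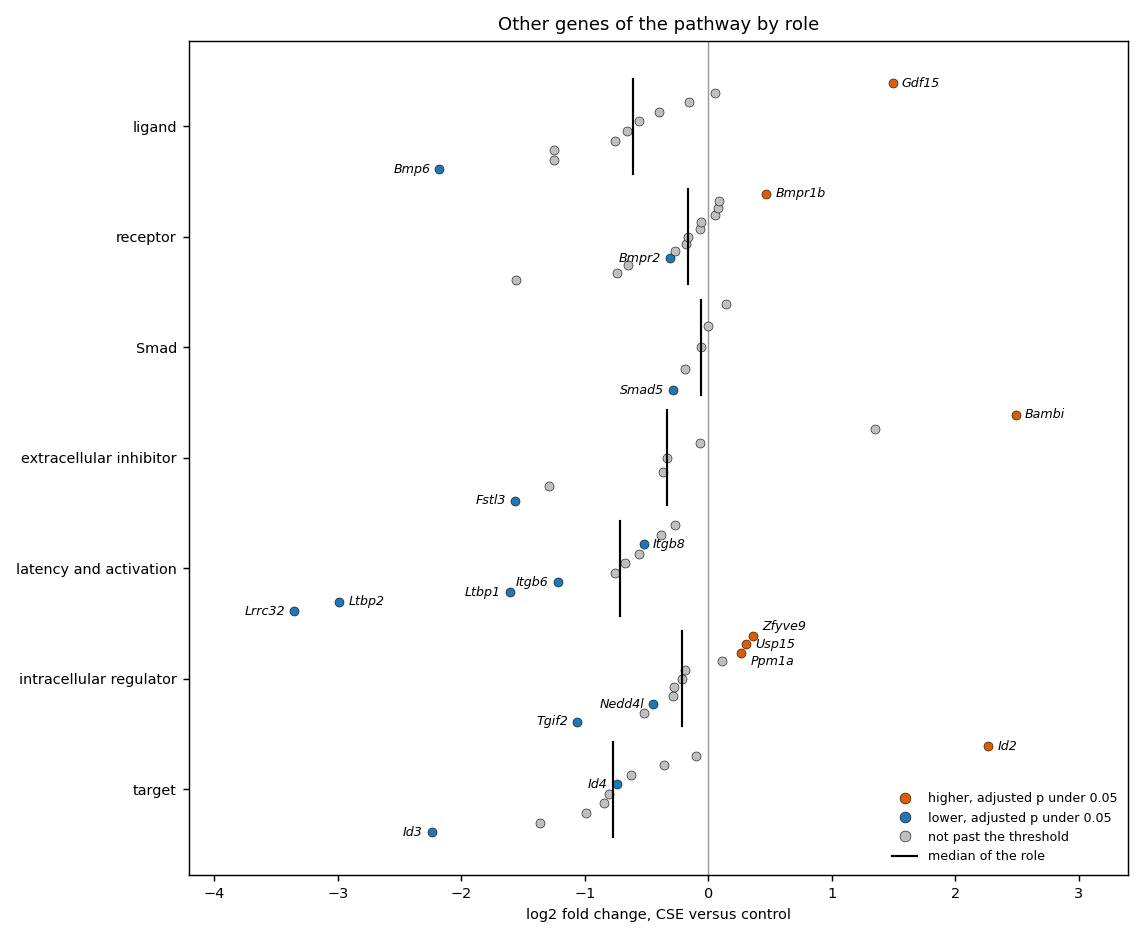
Log2 fold change in CSE versus control of the 66 other pathway genes tested, by role; each point is a gene, named where it passed an adjusted p of 0.05, and black lines are the medians of the roles. The 5 named genes for latency and activation all lie below 0, and Bambi and Id2 lie farthest above it.

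Among ligands, 1 of 10 rose and 1 fell, 10% each, where 10.8% of all genes were called higher and 10.4% lower. Bmp6, an epithelial BMP also known as a regulator of iron balance in liver, was at 1.79, 2.48, 1.58, 1.35 and 1.31 CPM in CSE libraries, against 5.84, 5.27, 8.13, 6.01 and 13.3 CPM in control libraries. No library of the groups overlapped, and Bmp6 fell with a log2 fold change of −2.18 ± 0.28 (edgeR, adjusted p = 1.19e-04). Gdf15, a distant member of the family released by stressed cells, was at 187, 122, 214, 125 and 191 CPM in CSE libraries, against 62.3, 61.8, 28.6, 32.7 and 113 CPM in control libraries, and rose by 1.49 ± 0.32 on the log2 scale (adjusted p = 0.00455).

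Of 13 receptor genes, 1 rose and 1 fell, and of 5 signalling Smads 1 fell, all by less than 0.5 on the log2 scale. These are 7.69% of the receptors in each direction and 20% of the Smads. Of all genes, 10.8% were called higher and 10.4% lower. Among the receptors, the BMP type I receptor Bmpr1b rose by 0.47 ± 0.16 on the log2 scale (edgeR, adjusted p = 0.0462), a call lost on leaving out any of 10 libraries (control 1, 2, 4 or 5, CSE 1, 3, 4 or 5, CSE with naringenin 1 or 2; adjusted p up to 0.115). The BMP type II receptor Bmpr2 averaged 66.7 ± 4.41 CPM in CSE and 82.5 ± 6.94 CPM in control (SD, n = 5 each) and fell by 0.31 on the log2 scale (adjusted p = 0.0108). Among the Smads, Smad5 averaged 46.4 ± 1.07 CPM in CSE and 56.7 ± 3.07 CPM in control and fell by 0.29 on the log2 scale (adjusted p = 0.00262). The type II TGF-beta receptor Tgfbr2 had a log2 fold change of −0.06 ± 0.17 (adjusted p = 0.828).

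Of 7 extracellular inhibitors, Bambi rose and Fstl3 fell, 14.3% each, where 10.8% of all genes were called higher and 10.4% lower. Bambi encodes a decoy receptor without a kinase, and was at 2.57, 3.05, 4.10, 2.97 and 4.4 CPM in CSE libraries, against 0.706, 0.144, 0.803, 0.696 and 0.687 CPM in control libraries. All CSE libraries lay above all control libraries, with a log2 fold change of 2.49 ± 0.35 (edgeR, adjusted p = 2.25e-04). Fstl3, a secreted protein that binds activins, was at 6.11, 13.2, 4.65, 14.0 and 8.49 CPM in CSE libraries, against 12.7, 16.0, 41.4, 30.3 and 36.5 CPM in control libraries, with −1.56 ± 0.43 (adjusted p = 0.019). The activin-binding follistatin, Fst, had −0.34 ± 0.36 (adjusted p = 0.553).

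The genes listed under latency and activation had 5 calls among 10 genes tested, all lower, with a median log2 fold change of −0.71. That is 50% of this role, where 10.4% of all genes were called lower. Itgb6, the beta-6 chain of the activating integrin, was at 176, 263, 157, 259 and 181 CPM in CSE libraries, against 353, 362, 689.7, 584 and 424 CPM in control libraries, without overlap (−1.22 ± 0.27; edgeR, adjusted p = 0.00574). Itgb8, the beta-8 chain, averaged 10.7 ± 1.49 CPM in CSE and 15.4 ± 0.692 CPM in control (SD, n = 5 each; −0.52 ± 0.12, adjusted p = 0.00539). Ltbp1, a latent TGF-beta binding protein, was at 63.5, 109, 45.1, 104 and 48.9 CPM in CSE libraries, against 100.1, 112, 382, 275 and 261 CPM in control libraries (−1.61 ± 0.48, adjusted p = 0.0277). Ltbp2, listed here as a relative of Ltbp1 and not for a shown part in latency, had −2.99 ± 0.90 (adjusted p = 0.0286), −2.30 without control 3. Both Ltbp calls were lost without control 3 or 4 or CSE 1, 3 or 5 (adjusted p up to 0.0686 for Ltbp1 and 0.0775 for Ltbp2). Lrrc32, a cell surface anchor of latent TGF-beta, was at 0, 0.0689, 0, 0.525 and 0 CPM in CSE libraries, against 0.812, 0.646, 1.40, 1.46 and 1.89 CPM in control libraries, with −3.36 ± 0.94 (adjusted p = 0.0197) and −6.03 without CSE 4. The summed fibroblast and smooth muscle markers, mostly Tagln, were lower in every CSE library than in any control library, but not every marker was lower. Their part in the values of this group was not tested.

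Of 11 intracellular regulators, 3 rose and 2 fell, 27.3% and 18.2%, where 10.8% of all genes were called higher and 10.4% lower. Nedd4l, a ubiquitin ligase that acts on activated Smads, averaged 80.7 ± 3.35 CPM in CSE and 110.1 ± 4.53 CPM in control (SD, n = 5 each), and fell by 0.45 on the log2 scale (edgeR, adjusted p = 2.44e-04). Tgif2, a co-repressor of Smads, was at 4.84, 5.39, 2.27, 5.4 and 3.13 CPM in CSE libraries, against 5.66, 7.63, 7.88, 9.99 and 12.7 CPM in control libraries, without overlap (−1.06 ± 0.26, adjusted p = 0.00968). Zfyve9, which presents Smads to the receptor, had 0.37 ± 0.10 (adjusted p = 0.02), lost without control 4 (0.0525) or CSE 3 (0.0504). Usp15, a deubiquitinase of the receptor, had 0.31 ± 0.07 (adjusted p = 0.00671), and Ppm1a, a Smad phosphatase, 0.27 ± 0.06 (adjusted p = 0.00546).

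Of 10 targets, 1 rose and 2 fell, with a median log2 fold change of −0.78. These are 10% and 20%, where 10.8% of all genes were called higher and 10.4% lower. Id2 was at 43.7, 55.6, 48.0, 67.4 and 47.8 CPM in CSE libraries, against 8.93, 10.6, 12.2, 10.1 and 12.6 CPM in control libraries. Every CSE library lay above every control library, and Id2 rose with a log2 fold change of 2.27 ± 0.15 (edgeR, adjusted p = 3.49e-07). Its relatives Id3 and Id4, like it inhibitors of differentiation factors, fell. Id3 was at 0.512, 0.931, 1.18, 0.821 and 1.14 CPM in CSE libraries, against 1.2, 2.14, 3.64, 2.68 and 12.0 CPM in control libraries (−2.24 ± 0.54, adjusted p = 0.00924), and without control 5 the value was −1.40. Id4 averaged 7.41 ± 1.64 CPM in CSE and 12.4 ± 2.57 CPM in control (SD, n = 5 each; −0.74 ± 0.20, adjusted p = 0.0148). Id1 had −0.81 ± 0.28 (adjusted p = 0.054). Ccn2, a widely used readout of TGF-beta, had −0.99 ± 0.53 (adjusted p = 0.203), and Tgfbi had −1.36 ± 0.48 (adjusted p = 0.0558).

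**Figure D4:**
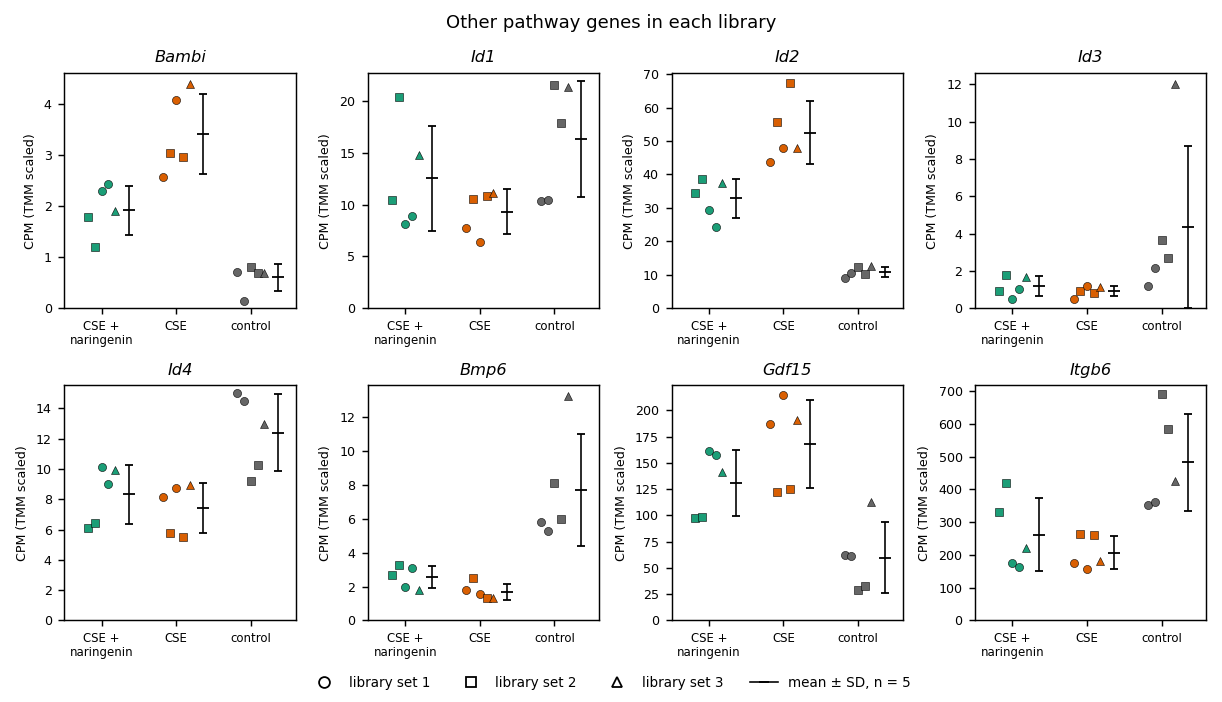
Level in every library, in CPM on a linear axis from 0, of 8 pathway genes outside the 10 (points shaped by library set), with CSE with naringenin left, CSE in the middle and control right; bars are the mean ± SD over 5 libraries, cut at 0 where the SD exceeds the mean (Id3 in control). Id2 averaged 32.8 CPM in CSE with naringenin, 52.5 CPM in CSE and 10.9 CPM in control, and Bambi 1.93, 3.42 and 0.607 CPM.

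In CSE with naringenin versus CSE, Id2 was the 1 gene of the 66 that was called, as lower, where the median log2 fold change of the list was 0.10. Id2 was at 34.3, 38.7, 29.4, 24.4 and 37.4 CPM in CSE with naringenin libraries, all below the lowest CSE library at 43.7 CPM and above the highest control library at 12.6 CPM. Its log2 fold change was −0.68 ± 0.14 (edgeR, adjusted p = 0.04), and the call was lost on leaving out any of 10 libraries (control 2 or 4, CSE 2, 3, 4 or 5, CSE with naringenin 1, 3, 4 or 5; adjusted p up to 0.101), where the value stayed between −0.73 and −0.57. Bambi was at 1.79, 1.21, 2.30, 2.43 and 1.9 CPM in CSE with naringenin libraries, again all below the CSE libraries, but its log2 fold change of −0.83 ± 0.32 did not pass (adjusted p = 0.273). With library set in the fit 8 of the 66 were called higher and 4 lower, 12.1% and 6.06% of the list, where 6.66% and 6.04% of all genes were.

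In CSE with naringenin versus control, 3 of the 66 were called higher and 7 lower, with a median log2 fold change of −0.25. These are 4.55% and 10.6% of the list, where 4.26% and 3.9% of all genes were called. Id2 had 1.59 (edgeR, adjusted p = 2.19e-05) and Bambi 1.66 ± 0.34 (adjusted p = 0.00829). Bmp6 had −1.58 ± 0.27 (adjusted p = 0.00305) and Nedd4l −0.38 (adjusted p = 0.00225). Nbl1, a secreted BMP antagonist, was at 43.9, 53.2, 41.1, 36.7 and 51.5 CPM in CSE with naringenin libraries, against 57.6, 63.3, 68.3, 71.0 and 86.4 CPM in control libraries (−0.61 ± 0.14, adjusted p = 0.0133). These 5 calls held on leaving out each library in turn.

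The other 5 calls of that comparison were lost on leaving out 1 library. Gdf15 had 1.13 (edgeR, adjusted p = 0.0402), lost without control 1, 2, 3 or 4, CSE 1, or CSE with naringenin 1, 3, 4 or 5 (adjusted p up to 0.0929). Tgif2 had −0.90 (adjusted p = 0.0438), lost without control 2, 3, 4 or 5, CSE 1 or 2, or CSE with naringenin 1, 3, 4 or 5 (up to 0.0985). Id3 had −1.87 ± 0.53 (adjusted p = 0.0428), lost without control 3, 4 or 5, CSE 2, 3, 4 or 5, or CSE with naringenin 1, 3, 4 or 5 (up to 0.107), and −1.04 without control 5. Bmpr2 had −0.27 (adjusted p = 0.0442), lost without any library but control 2, CSE 5 and CSE with naringenin 2 (up to 0.0993). Bmpr1a, another BMP type I receptor, had −0.20 (adjusted p = 0.0462), lost without any library but CSE 5 and CSE with naringenin 1 (up to 0.0959).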

How the data were processed

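The authors deposited raw whole-number counts for each gene, used here for 15 libraries of rat tracheal epithelial cells in 3 groups of 5. FPKM values (fragments per kilobase and M fragments) stand beside them and were computed by the authors, per the file headers. The libraries were strand-specific with molecular identifiers in the adapters, read as pairs of 150 bases, per the labels' protocols. Per the submitters' processing notes, the tools included edgeR, DESeq2, StringTie 1.3.4d, HISAT2 2.0.4, cutadapt 1.9 and UMI-tools, without roles. Genome build, merging of identifiers and use of strand in counting are not given in the sources used here.

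Genes were filtered with filterByExpr and tested in R 4.3.3 with edgeR 4.0.16 (quasi-likelihood, TMM, 1 fit of 15 libraries with group as the term, Benjamini-Hochberg). DESeq2 1.42.0, limma 3.58.1 (voom, and log2 of the deposited FPKM plus 0.1 or 1), other size factors, no filter, blocks for replicate number or library set, and leaving out each library were alternatives. The members, the pathway and marker lists and the motifs were chosen with earlier results of these data known. Of 82 pathway genes written down, 79 matched the table by symbol, and of 39 markers 34. Named genes are the 10 members, pathway genes called in CSE with naringenin versus CSE, up to 4 called genes per role and direction in each other comparison with the largest fold changes, and the 3 genes most like each member; other genes were named after their values were seen. Replicates of a group differed by a median chi-square per gene of 2.77 to 20.9, against 0.455 from sampling alone, so none was taken as a repeat deposit. Sequences are RefSeq's, build GRCr8.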

Additional observations from a re-analysis of the deposited data

Results flagged for a closer look

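In 93 groups of 5 libraries checked with Dixon's criterion (0.71), 5 values stood far from the rest of their group, and chance alone gives about 1 in 20. Inhba was at 9.43 CPM in control 5, where the next control library had 2.76 CPM. Id3 was at 12.0 CPM in the same library, and the next control had 3.64 CPM. Bmpr1a was at 128 CPM in CSE 5, where the next CSE library had 111 CPM. Bambi was at 0.144 CPM in control 2, below the next control library at 0.687 CPM. Lrrc32 was at 0.525 CPM in CSE 4, where the next CSE library had 0.0689 CPM.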

How the results depend on the processing

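Counts of calls depended mainly on whether the library sets were in the fit. The sets were found from these same counts, so the calls of that fit may be too many. With library set as a block, 39 other pathway genes were called in CSE versus control (20 without it), 12 in CSE with naringenin versus CSE (1) and 25 in CSE with naringenin versus control (10), and of the 10 members 9 (5), 4 (0) and 5 (1). DESeq2 called 8, 1 and 2 members in these comparisons and 16 other pathway genes in CSE with naringenin versus control, where it called 25.6%, 4.04% and 13% of all genes. Limma-voom called 2, 1 and 0 members and 21%, 1.09% and 8.02% of all genes. On log2(FPKM + 1), 1 member was called in CSE with naringenin versus CSE and 0 against control, where 1.02% and 10.6% of all genes were. Without a filter on low counts, 0 other pathway genes were called in CSE with naringenin versus CSE and 5 against control. The shares of all genes there were 0.355% and 4.51%. Leaving out each library in turn gave 16 to 25, 0 to 2 and 5 to 13 other pathway genes and 3 to 6, 0 and 1 to 2 members. The shares of all genes called in those fits are not given here, so nothing is read from these ranges. The cause of these differences was not tested.

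The replicate numbers were also used as a block. Same-numbered libraries of different groups did not deviate together: the correlations of their deviations from the group means ran from −0.394 to 0.386, with 7 of 15 pairs over 0.1, so the numbers were not taken as pairs. With the replicate block, 21 other pathway genes were called in CSE versus control, 0 in CSE with naringenin versus CSE and 7 against control, and 0 members against control. That fit called 22%, 1.89% and 9.14% of all genes in the same order of comparisons. In 33.3% of libraries the closest match carried the same number.

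The log2 fold change of Inhbe in CSE with naringenin versus CSE, −0.04, was above 0 with limma-voom (0.21), on log2(FPKM + 0.1) (0.11), with the replicate block (0.08) and with the library set block (0.16). No value past the threshold changed sign under the alternatives run. For genes at under 1 CPM, such as Inhbe in control, Inhba in CSE, Bmp2 and Lrrc32, low counts limit the precision.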
